A study of Mus musculus with 16 samples.

Results

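A set of 10 genes that mark dendritic cells and their subsets was taken by symbol from a table of 24001 gene rows and followed across 8 groups of mouse bone marrow cells. The 10 genes are Itgax, Flt3, Zbtb46, Batf3, Id2, Cd209a, Sirpa, Xcr1, Clec9a and Siglech. All 10 had a row, 6 reached 1 FPKM (fragments for each kilobase of transcript and each M of mapped fragments, M being mega) in at least 2 libraries and were tested, and Cd209a, Xcr1, Clec9a and Siglech stayed below 1 FPKM in all 16 libraries.

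Bone marrow of NZM2410 mice, a lupus-prone strain, was grown in medium with 20 ng/ml of GM-CSF plus 10 ng/ml of IL-4, and the dendritic cells were taken on day 7. They then received the TLR7 ligand loxoribine with the TLR9 ligand CpG (1 μg/ml), or vehicle, for 24 h. Loxoribine is labelled at 200 μmol/ml, and nothing here allows a check of that unit. Each group held 2 libraries. Of the 4 arms, named here by their source labels, Ex3a OVX is given as ERα null, and ERKO OVX as ERα short, the receptor that lacks the AF-1 function. The donors of both OVX arms were ovariectomized at 4 to 8 weeks and carried a 90-day pellet with 0.25 mg of estradiol. KO is ERα short without surgery, and WT has the intact receptor without surgery. The genotype labels contradict these names in KO vehicle and ERKO OVX vehicle, given there as null, and in Ex3a OVX under both treatments, given there as short. If those labels hold, the agonist responses in KO and ERKO OVX, and the differences of response, compare genotypes as well as treatments. The series title speaks of deletion in CD11c+ cells, and CD11c is the protein of Itgax. The age of the KO and WT mice was not stated in the labels.

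Library depth, estimated from the spacing of low FPKM values, was 17.45 to 23.35 M fragments in the OVX arms and 36.65 to 43.55 M in the unoperated arms. The 2 libraries of each OVX group differed by about the sampling noise alone, with a median variance 0.879 to 1.29 times that of counting, against 3.58 to 7.80 times in KO and WT. They were counted as 1 sample, their average, so the fit had 12 samples, and the OVX groups borrow their spread from KO and WT. The labels do not tie the libraries of a group to different mice or cultures, and the p-values therefore cover the spread between libraries, which may be technical. Esr1, the gene of the receptor, had 0.364 and 0.317 FPKM in Ex3a OVX agonist, 0.347 and 0.283 in Ex3a OVX vehicle, 1.12 and 1.16 in ERKO OVX agonist, and 1.02 and 0.982 in ERKO OVX vehicle. It had 2.01 and 1.77 FPKM in KO agonist, 2.47 and 2.57 in KO vehicle, 0.937 and 0.684 in WT agonist, and 1.21 and 1.38 in WT vehicle. Ex3a OVX was thus the lowest arm and KO the highest, and a level per gene does not show which allele is present.

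Dendritic cells take up antigen and present it to T cells. Conventional dendritic cells fall into cDC1, which cross-present antigen to CD8 T cells, and cDC2, which mainly serve CD4 T cells, while plasmacytoid dendritic cells make type I interferon. Culture with GM-CSF and IL-4 is known to give monocyte-derived dendritic cells together with macrophage-like cells, whereas culture with the ligand of Flt3 gives the cDC1, cDC2 and plasmacytoid subsets. Itgax encodes CD11c, an integrin chain of most dendritic cells, and Flt3 is the growth factor receptor of their precursors. Zbtb46 is a zinc finger factor of conventional dendritic cells that classical monocytes and macrophages lack. Batf3 and Id2 are factors needed for cDC1, Batf3 as a partner of JUN and IRF proteins and Id2 as an inhibitor of E proteins. Xcr1, a chemokine receptor, and Clec9a, a receptor for actin of dead cells, mark cDC1. Sirpa, the receptor of CD47, and Cd209a, a mouse relative of the lectin DC-SIGN, mark cDC2 and monocyte-derived cells. Siglech is a sialic acid lectin of plasmacytoid cells.

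In the GENCODE annotation of mm10, Zbtb46 lies at chr2:181387762-181459426 on the minus strand, Sirpa at chr2:129592835-129632228 on the plus strand, Batf3 at chr1:191097847-191108945 on the plus strand and Id2 at chr12:25093799-25097140 on the minus strand. Itgax lies at chr7:128129547-128150657 and Siglech at chr7:55768178-55778925, both on the plus strand. Flt3 lies at chr5:147330741-147400489 on the minus strand and shares bases with the antisense gene Gm26597. Clec9a, at chr6:129408862-129424763 on the plus strand, overlaps Clec1b and Gm43914, and Zbtb46 holds the small RNA Gm22708. Xcr1 lies at chr9:123852315-123862029 and Cd209a at chr8:3743397-3748984, both on the minus strand. The counting is not stated to use strand, so reads of Flt3 and Clec9a could include reads of these neighbours. Sirpa and Cd209a belong to families of similar genes, so their values are uncertain where the authors' counting, whose rule for shared reads was not stated, could split reads between copies.

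RefSeq promoters (build GRCm38.p6, 250 bases before to 50 bases after the start) were matched for 9 of the 10 genes. The promoters of Zbtb46 and Batf3 are shown because both genes were lower in every OVX library than in any KO or WT library. That of Itgax is shown because its protein, CD11c, is named in the series title. Capitals mark letters found on either strand, namely TGANTCA, a form bound by AP-1 and BATF proteins, GAGGAA, a form bound by ETS factors such as PU.1, and AGGTCA, the core letters of an estrogen response element.
Zbtb46, chr2:181424339-181424638, minus strand: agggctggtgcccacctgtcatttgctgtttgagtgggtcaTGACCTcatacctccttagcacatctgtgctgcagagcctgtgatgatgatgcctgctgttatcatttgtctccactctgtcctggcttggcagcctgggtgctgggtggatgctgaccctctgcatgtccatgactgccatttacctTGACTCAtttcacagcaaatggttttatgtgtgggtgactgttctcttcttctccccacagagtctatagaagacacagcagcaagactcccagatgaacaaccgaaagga
Batf3, chr1:191098164-191098463, plus strand: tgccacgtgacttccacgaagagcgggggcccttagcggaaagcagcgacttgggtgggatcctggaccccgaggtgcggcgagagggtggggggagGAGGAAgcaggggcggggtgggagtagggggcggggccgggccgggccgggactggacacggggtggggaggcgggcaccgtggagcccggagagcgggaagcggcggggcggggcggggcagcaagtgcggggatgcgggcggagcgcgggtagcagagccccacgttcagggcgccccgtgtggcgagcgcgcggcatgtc
Itgax, chr7:128129300-128129599, plus strand: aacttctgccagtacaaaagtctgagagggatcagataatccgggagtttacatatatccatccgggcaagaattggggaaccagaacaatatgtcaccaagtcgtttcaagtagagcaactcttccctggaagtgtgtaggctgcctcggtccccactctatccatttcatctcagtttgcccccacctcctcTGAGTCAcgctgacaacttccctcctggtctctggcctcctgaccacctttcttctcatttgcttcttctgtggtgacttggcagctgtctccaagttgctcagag
The Zbtb46 start in RefSeq lies inside the longer GENCODE gene, so these bases are the promoter of 1 annotated transcript and not of the outermost one. Zbtb46 held TGANTCA at -61 and AGGTCA at -209 from the start. Itgax held TGANTCA at -56, and Batf3 held GAGGAA at -153. Of 32851 promoters of the same length, 7.81% held TGANTCA, 28.3% GAGGAA and 16.3% AGGTCA, none of these sharing bases with another here. The Batf3 promoter had 75.7% G and C, Zbtb46 50.7% and Itgax 50.0%, against a median of 52.7% over all promoters. These matches are letters only and say nothing of binding.

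The 10 genes covered nearly the whole range of expression. By mean FPKM, Sirpa stood above 99.0% of all rows, Id2 above 99.0%, Itgax above 96.9%, Batf3 above 92.8%, Zbtb46 above 78.2% and Flt3 above 58.9%. Xcr1 stood above 51.2%, Clec9a above 44.4%, Siglech above 33.8% and Cd209a above 29.6%, which includes many rows at 0. Itgax, Sirpa and the cDC1 factors Batf3 and Id2 were thus well measured, as was Zbtb46 in KO and WT. Flt3 was low, at 1.12 to 4.01 FPKM. The cDC1 surface genes Xcr1 and Clec9a were lower still, and the plasmacytoid gene Siglech and Cd209a were at or near the limit of detection. In bulk RNA, fewer cells of a type and less RNA per cell cannot be told apart.

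**Figure D1:**
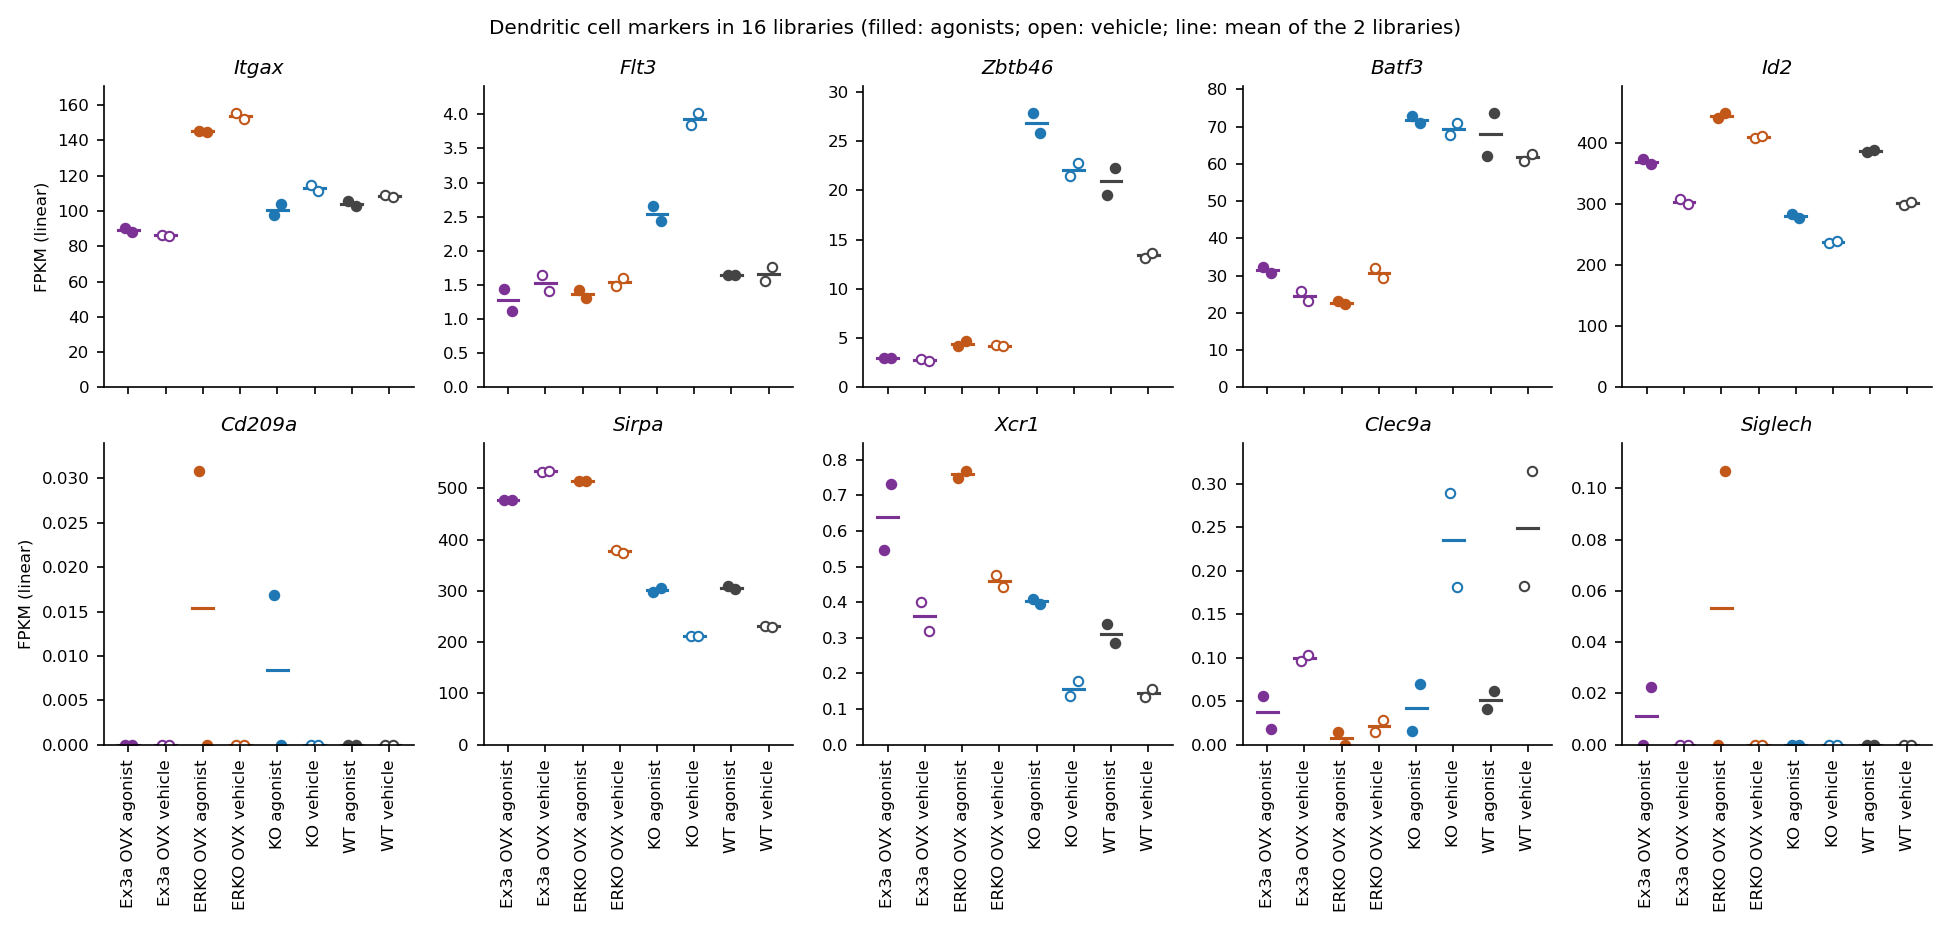
FPKM of the 10 genes (linear axes from 0, a scale for each gene) in each of the 16 libraries by group; filled points are agonist libraries, open points vehicle libraries and lines the mean of the 2 libraries. Zbtb46 lies between 2.65 and 4.69 FPKM in the OVX libraries and between 13.1 and 27.8 in KO and WT, while Sirpa runs from 374 to 534 in the OVX libraries and from 212 to 309 in KO and WT.

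Itgax, the CD11c chain, had 90.5 and 88.1 FPKM in Ex3a OVX agonist, 86.3 and 86.0 in Ex3a OVX vehicle, 145 and 145 in ERKO OVX agonist, and 155 and 152 in ERKO OVX vehicle. It had 97.7 and 104 FPKM in KO agonist, 115 and 111 in KO vehicle, 105 and 103 in WT agonist, and 109 and 108 in WT vehicle. ERKO OVX was highest and Ex3a OVX lowest, and the ranges of KO agonist and WT agonist overlapped. The whole span from lowest to highest library was 1.81-fold, the narrowest among the 6 tested genes.

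Flt3, the receptor of dendritic cell precursors, had 1.43 and 1.12 FPKM in Ex3a OVX agonist, 1.65 and 1.41 in Ex3a OVX vehicle, 1.42 and 1.31 in ERKO OVX agonist, and 1.49 and 1.60 in ERKO OVX vehicle. It had 2.66 and 2.43 FPKM in KO agonist, 3.85 and 4.01 in KO vehicle, 1.64 and 1.65 in WT agonist, and 1.56 and 1.76 in WT vehicle. Only KO stood apart, with KO vehicle above KO agonist, and among the other 6 groups neighbouring ranges overlapped except between WT agonist and ERKO OVX vehicle.

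Zbtb46, the factor of conventional dendritic cells, had 3.03 and 2.94 FPKM in Ex3a OVX agonist, 2.87 and 2.65 in Ex3a OVX vehicle, 4.15 and 4.69 in ERKO OVX agonist, and 4.28 and 4.20 in ERKO OVX vehicle. It had 27.8 and 25.9 FPKM in KO agonist, 21.4 and 22.8 in KO vehicle, 19.6 and 22.3 in WT agonist, and 13.1 and 13.7 in WT vehicle. No OVX library reached the lowest unoperated one. Its span of 10.5-fold was the widest of the 6 tested genes, and neighbouring groups overlapped between KO vehicle and WT agonist and within ERKO OVX.

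Batf3, the cDC1 factor, had 32.3 and 30.6 FPKM in Ex3a OVX agonist, 25.9 and 23.1 in Ex3a OVX vehicle, 23.2 and 22.3 in ERKO OVX agonist, and 32.2 and 29.3 in ERKO OVX vehicle. It had 72.8 and 71.0 FPKM in KO agonist, 67.8 and 71.1 in KO vehicle, 62.2 and 73.5 in WT agonist, and 60.7 and 62.7 in WT vehicle. As with Zbtb46, the OVX and unoperated libraries did not overlap. The 4 unoperated groups overlapped with their neighbours, and the 2 WT agonist libraries were the widest pair.

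Id2, the inhibitor of E proteins, had 373 and 365 FPKM in Ex3a OVX agonist, 308 and 299 in Ex3a OVX vehicle, 440.4 and 448 in ERKO OVX agonist, and 408 and 411 in ERKO OVX vehicle. It had 284 and 276 FPKM in KO agonist, 237 and 239.5 in KO vehicle, 385 and 389 in WT agonist, and 298 and 303 in WT vehicle. The agonist groups lay above the vehicle group of the same arm in all 4 arms. KO was the lowest arm and ERKO OVX the highest.

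Sirpa, the CD47 receptor, had 477 and 476 FPKM in Ex3a OVX agonist, 532 and 534 in Ex3a OVX vehicle, 514 and 514 in ERKO OVX agonist, and 381 and 374 in ERKO OVX vehicle. It had 297 and 305 FPKM in KO agonist, 212 and 213 in KO vehicle, 309 and 303 in WT agonist, and 231 and 229.8 in WT vehicle. Every OVX library exceeded every unoperated library, the reverse of Zbtb46 and Batf3. Ex3a OVX was the arm in which the vehicle libraries were the higher ones.

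Xcr1, the cDC1 chemokine receptor, had 0.547 and 0.733 FPKM in Ex3a OVX agonist, 0.402 and 0.319 in Ex3a OVX vehicle, 0.749 and 0.769 in ERKO OVX agonist, and 0.475 and 0.444 in ERKO OVX vehicle. It had 0.409 and 0.396 FPKM in KO agonist, 0.137 and 0.179 in KO vehicle, 0.338 and 0.285 in WT agonist, and 0.133 and 0.157 in WT vehicle. These levels stand for an estimated 25.4 to 78.7 fragments a library. Both agonist libraries lay above both vehicle libraries in 4 of 4 arms.

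Clec9a, the other cDC1 surface gene, had 0.0563 and 0.0182 FPKM in Ex3a OVX agonist, 0.0965 and 0.103 in Ex3a OVX vehicle, 0.0146 and 0 in ERKO OVX agonist, and 0.0144 and 0.0279 in ERKO OVX vehicle. It had 0.0160 and 0.0695 FPKM in KO agonist, 0.290 and 0.182 in KO vehicle, 0.0407 and 0.0622 in WT agonist, and 0.183 and 0.315 in WT vehicle. The means were lower with the agonists in 4 of 4 arms, and the pairs overlapped in ERKO OVX, where an estimated 0 to 2.1 fragments were seen.

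Both genes lie below the filter, and the values here are from the fit without it, on the log2 scale of FPKM + 1. Xcr1 passed in KO at 0.28 ± 0.037 (adjusted p 0.00203) and in WT at 0.20 ± 0.037 (0.00748). It was also higher by 0.27 in Ex3a OVX and by 0.27 in ERKO OVX. With 1 averaged sample a group, the OVX values take their spread from the deeper KO and WT libraries. That spread does not hold the counting error at OVX depth, so only the size is given for Xcr1 there. Clec9a passed in KO at -0.24 ± 0.062 (0.0281) and in WT at -0.25 ± 0.062 (0.0244), and not in Ex3a OVX at -0.084 ± 0.088 (0.599) or ERKO OVX at -0.020 ± 0.088 (adjusted p of 1).

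Cd209a, the lectin used to recognise monocyte-derived dendritic cells, was above 0 in 2 of 16 libraries, at 0.0309 FPKM in the first ERKO OVX agonist library and 0.0169 in the first KO agonist library, about 1 fragment each. A count of 0 allows up to 3 fragments, or 0.0465 to 0.116 FPKM of Cd209a depending on the library. Siglech was above 0 in 2 libraries, at 0.107 FPKM or an estimated 5.7 fragments in the second ERKO OVX agonist library and 0.0227 or an estimated 0.9 fragments in the second Ex3a OVX agonist library. A count of 0 allows 0.0299 to 0.0747 FPKM of Siglech. These limits cover counting error only and rest on the estimated depth. Among the relatives of Cd209a, Cd209b and Cd209c were listed at 0 in all 16 libraries and Cd209d, Cd209e, Cd209f and Cd209g stayed below 1 FPKM.

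**Figure D2:**
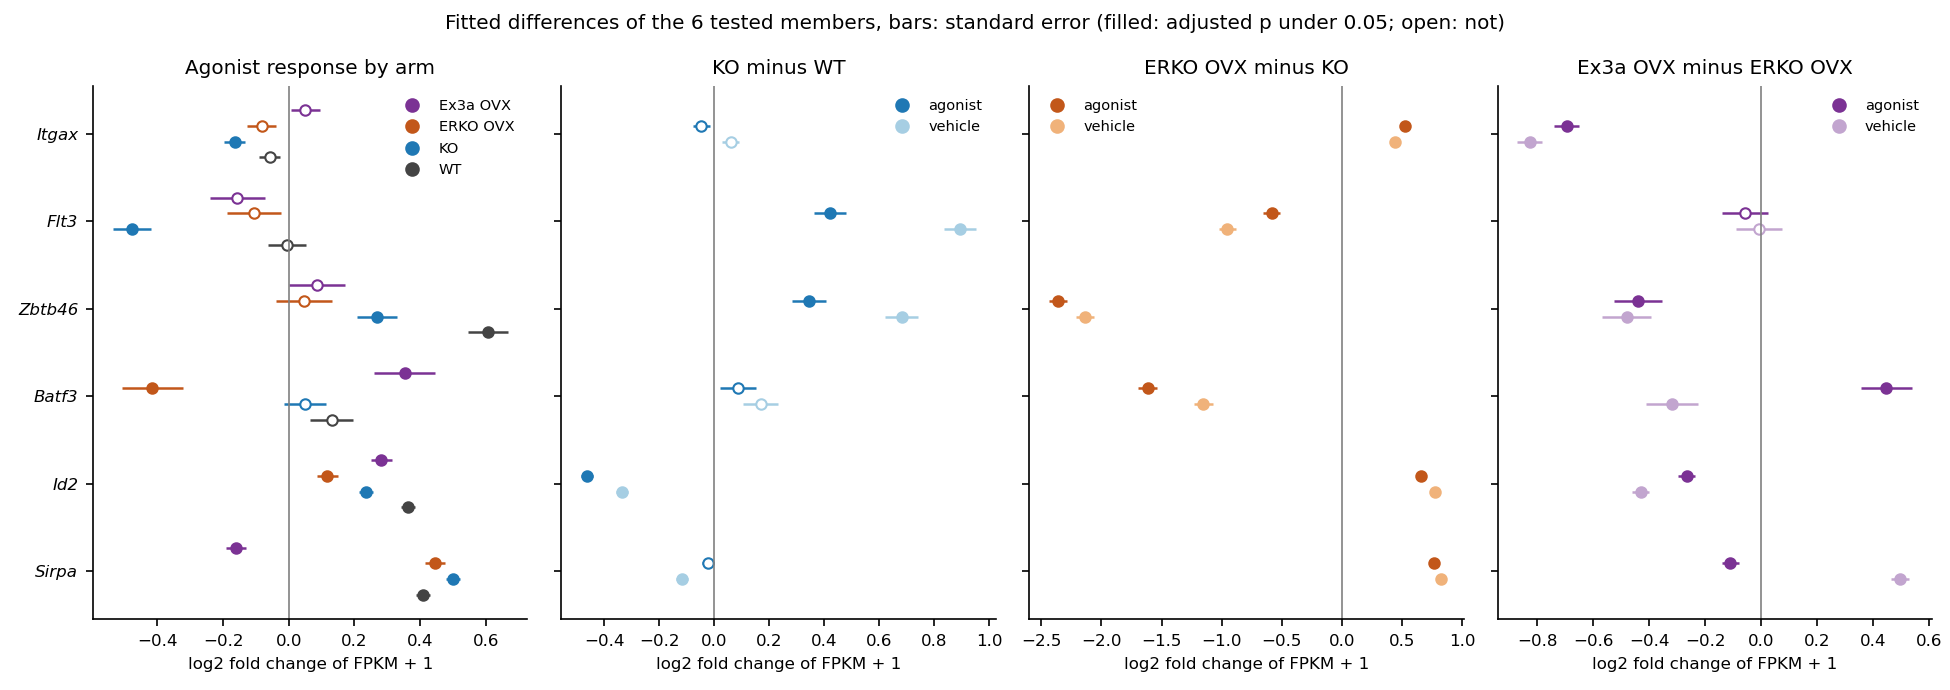
Fitted log2 differences of FPKM + 1 for the 6 tested genes, with the standard error, for the response to agonists in each arm and for the 3 pairs of arms; filled points have an adjusted p under 0.05. In ERKO OVX against KO, Zbtb46 lies at -2.36 with agonists and -2.14 with vehicle, and Sirpa at 0.77 and 0.82.

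ERKO OVX and KO are both given as ERα short, with and without ovariectomy and estradiol. Zbtb46, Batf3 and Flt3 were lower and Itgax, Id2 and Sirpa higher in ERKO OVX than in KO, in vehicle and in agonist cells alike. All 6 tested genes passed the test in vehicle cells, where 80.6% of all genes passed, and all 6 in agonist cells, where 78.4% did, so the share of passing genes is near the background. Fold changes are on the log2 scale of FPKM + 1, from limma with Benjamini-Hochberg adjustment over all genes tested, and they understate changes of low genes such as Flt3. Zbtb46 differed by -2.14 ± 0.074 (SE; adjusted p 3.01e-09) in vehicle and by -2.36 ± 0.074 (1.82e-09) in agonist cells. Batf3 differed by -1.15 in vehicle and -1.62 in agonist cells, and Flt3 by -0.95 and -0.58. Flt3 had an estimated 119 to 148 fragments in the ERKO OVX libraries, against 405 to 661 in KO. As with Xcr1, the spread taken from KO and WT does not hold the counting error at OVX depth, so only the size is given for Flt3. Id2 differed by 0.78 ± 0.027 and 0.66 ± 0.027, Sirpa by 0.82 ± 0.027 and 0.77 ± 0.027, and Itgax by 0.44 ± 0.038 and 0.52 ± 0.038 (largest adjusted p 2.54e-06, for Itgax in vehicle). With a pseudocount of 5 the Flt3 values were -0.45 and -0.25 and still passed. With quantile normalization the vehicle value of Itgax was 0.038 and no longer passed (adjusted p 0.403, against at most 4.06e-05 with any 1 library left out), that of Id2 was 0.28 and that of Sirpa 0.33, and the agonist values were 0.29, 0.26 and 0.33, each of those 5 still passing. Surgery, estradiol and library depth differ together between these arms and cannot be told apart.

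KO cells, set against WT cells, had more Flt3 and Zbtb46 and less Id2. In vehicle cells 4 of the 6 genes passed, against 59.9% of all genes. Flt3 was higher in KO vehicle by 0.89 ± 0.059 (adjusted p 9.20e-07) and Zbtb46 by 0.68 ± 0.061 (7.86e-06), while Id2 was lower, at -0.34 ± 0.022 (9.43e-07), and Sirpa, at -0.12 ± 0.022 (0.0012). In agonist cells 3 of the 6 passed, against 54.5% of all genes. There Flt3 was higher by 0.42 ± 0.059 (0.000204) and Zbtb46 by 0.34 ± 0.061 (0.000955), and Id2 was lower, at -0.46 ± 0.022 (1.38e-07). With a pseudocount of 5 the Flt3 values shrank to 0.42 in vehicle and 0.18 in agonist cells and still passed. Itgax, at 0.060 ± 0.031 and -0.047 ± 0.031, did not pass (adjusted p 0.13 and 0.238). The vehicle value of Itgax passed at 0.14 with quantile normalization (0.00502, up to 0.424 over all settings) and the agonist value at -0.090 without the second KO agonist library (0.0361, up to 0.939). Sirpa in agonist cells was -0.024 ± 0.022 and did not pass (0.383). Batf3 did not pass either, at 0.17 ± 0.065 (0.0519) and 0.086 ± 0.065 (0.296). The vehicle value sat at the threshold, and passed at 0.18 with quantile normalization (0.0420) and at 0.17 with small RNA rows left out (0.0438). Both values also depended on the WT agonist pair. Without the first WT agonist library the vehicle difference passed at 0.17 (adjusted p 0.00187), as it did without the second (0.00188), and the agonist difference was -0.032 (0.546) without the first and 0.21 (0.00264) without the second; over all settings these adjusted p ran up to 0.215 and 0.573.

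Ex3a OVX, the arm given as null, had less Itgax, Zbtb46 and Id2 than ERKO OVX under both treatments. In vehicle cells 5 of the 6 genes passed, against 55% of all genes, and in agonist cells 5, against 62.5%. Itgax was lower in Ex3a OVX, at -0.83 ± 0.044 in vehicle (adjusted p 2.58e-07) and -0.69 ± 0.044 in agonist cells (7.99e-07). Zbtb46 stood at -0.48 ± 0.086 (0.00106) and -0.44 ± 0.086 (0.00149), and Id2 at -0.43 ± 0.031 (2.12e-06) and -0.27 ± 0.031 (5.40e-05). Batf3 and Sirpa changed direction with treatment. Batf3 was lower in Ex3a OVX vehicle, at -0.32 ± 0.092 (0.0174), and higher in Ex3a OVX agonist, at 0.45 ± 0.092 (0.00261). Sirpa was higher in Ex3a OVX vehicle, at 0.50 ± 0.031 (6.97e-07), and lower in Ex3a OVX agonist, at -0.11 ± 0.031 (0.0116). Without the second Ex3a OVX vehicle library the Batf3 vehicle difference was -0.24 and just missed the threshold (adjusted p 0.0544; highest over all settings 0.0595). With a pseudocount of 5 the Zbtb46 values were -0.25 and -0.24 and still passed. Flt3 did not pass, at -0.0082 ± 0.083 (0.943) and -0.058 ± 0.083 (0.566). With 1 averaged sample a group, these tests take their spread from KO and WT.

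With loxoribine and CpG, Id2 rose in all 4 arms, Sirpa rose in 3 and fell in Ex3a OVX, and Zbtb46 rose in KO and WT. In Ex3a OVX 3 of the 6 genes passed, against 37% of all genes. Batf3 rose by 0.35 ± 0.092 (adjusted p 0.0172) and Id2 by 0.28 ± 0.031 (0.000139), and Sirpa fell by 0.16 ± 0.031 on the log2 scale (0.00315). Without a filter on low values the Batf3 call was lost (adjusted p 0.0602, the highest over all settings). In ERKO OVX 3 passed, against 37.2% of all genes. Here Batf3 fell by 0.42 ± 0.092 (0.00841), while Id2 rose by 0.12 ± 0.031 (0.0159) and Sirpa by 0.45 ± 0.031 (1.49e-05).

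In KO 5 of the 6 genes passed, against 51% of all genes. By the genotype labels, KO vehicle differs from KO agonist in genotype as well. Flt3 fell by 0.48 ± 0.059 (9.30e-05) and Itgax by 0.16 ± 0.031 (0.00171), while Zbtb46 rose by 0.27 ± 0.061 (0.00464), Id2 by 0.23 ± 0.022 (1.48e-05) and Sirpa by 0.50 ± 0.022 (7.53e-08). With a pseudocount of 5 the Flt3 value was -0.24, and with quantile normalization that of Itgax was -0.27, both still passing. In WT 3 passed, against 57.5% of all genes. Zbtb46 rose by 0.60 ± 0.061 (1.94e-05), Id2 by 0.36 ± 0.022 (5.23e-07) and Sirpa by 0.41 ± 0.022 (2.12e-07). Batf3 in WT was 0.13 ± 0.065 (0.119) and became 0.25 (0.000808) without the first WT agonist library and 0.012 without the second, with adjusted p up to 0.826 over all settings. Flt3 in Ex3a OVX was -0.16 ± 0.083 (0.169) and passed at -0.26 (0.0352) without the first Ex3a OVX agonist library, with adjusted p up to 0.630. Zbtb46 had values of 0.086 ± 0.086 in Ex3a OVX and 0.047 ± 0.086 in ERKO OVX that did not pass (adjusted p 0.466 and 0.701), and at 2.65 to 4.69 FPKM a small change would be hard to see. Itgax did not pass in Ex3a OVX (0.051 ± 0.044), ERKO OVX (-0.082 ± 0.044) or WT (-0.058 ± 0.031), with adjusted p of 0.402, 0.178 and 0.142, nor did Flt3 in ERKO OVX (-0.11 ± 0.083, 0.344) or Batf3 in KO (0.049 ± 0.065, 0.567). Itgax passed in WT at -0.18 with quantile normalization (0.00135) and at -0.079 with median ratio scaling (0.0463), with adjusted p up to 0.448 over all settings.

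Whether arms differed in the response was tested with the interaction terms. By the genotype labels, KO and ERKO OVX also change genotype between vehicle and agonist cells, which these terms would include. Between KO and WT, 3 of the 6 genes passed, against 6.9% of all genes. The Flt3 response was -0.48 in KO and -0.0050 in WT, a difference of -0.47 ± 0.083 (adjusted p 0.00974; at most 0.0433 over all settings), and -0.24 with a pseudocount of 5. The Sirpa difference of 0.092 ± 0.031 did not pass (0.114) but did at 0.18 with quantile normalization (0.0151, up to 0.284 over all settings). The Zbtb46 response was 0.27 in KO and 0.60 in WT (-0.34 ± 0.086, 0.0481), and the Id2 response 0.23 in KO and 0.36 in WT (-0.13 ± 0.031, 0.0398). The last pair sat at the threshold. Zbtb46 lost its call without any 1 of the KO or WT libraries except the first WT agonist one, and Id2 without any 1 except the first KO agonist one. Of these losses the highest adjusted p came without the first WT vehicle library, at 0.153 for Zbtb46 and 0.152 for Id2. Zbtb46 also lost its call with a pseudocount of 0.1 (0.0508) or 5 (0.0513), without a filter (0.157) and with median ratio scaling (0.0574). Id2 also lost its call without a filter (0.0750), with median ratio scaling (0.0628) and with quantile normalization (0.128). Between Ex3a OVX and ERKO OVX, 3 of the 6 passed, against 31% of all genes. The Batf3 response was 0.35 in Ex3a OVX and -0.42 in ERKO OVX, a difference of 0.77 ± 0.13 (0.00317). The Sirpa response was -0.16 in Ex3a OVX and 0.45 in ERKO OVX (-0.61 ± 0.044, 5.52e-05), and the Id2 response 0.28 in Ex3a OVX and 0.12 in ERKO OVX (0.16 ± 0.044, 0.0201). With quantile normalization the Id2 difference was 0.032 and did not pass (0.667, against at most 0.0346 with any 1 library left out).

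Across the 8 group means, on the log2 scale of FPKM + 1, Zbtb46 followed Batf3 with a Pearson r of 0.956, and Batf3 ran against Sirpa at -0.903 and Zbtb46 against Sirpa at -0.85. Itgax followed neither, with r of -0.057 to Zbtb46 and -0.042 to Sirpa. These are descriptions over 8 points that share their arms, 4 of them OVX groups of lower depth. Within the OVX arms Zbtb46 and Batf3 could part. In Ex3a OVX agonist against ERKO OVX agonist they differed by -0.44 and 0.45. Of all tested genes, Vps39 (0.998), Arap2 (0.997) and Yes1 (0.996) were most like Zbtb46, and Zfp870 (0.99), Dancr (0.989) and 2510002D24Rik (0.989) most like Batf3. Cgref1 (0.976), Gabarapl1 (0.969) and Chil3 (0.969) were most like Itgax, and Rgs12 (0.983), Reep1 (0.972) and Cenpf (0.97) most like Flt3. For Id2 they were Hspa13 (0.988), Clmp (0.985) and Chmp7 (0.983), and for Sirpa Tgif1 (0.991), Ptk2b (0.989) and Disp1 (0.987). As an example of level, mean FPKM of Arap2 was 2.10 in Ex3a OVX agonist and 2.38 in ERKO OVX agonist, and 17.8 in KO agonist and 12.7 in WT agonist. Zfp870, Dancr, Reep1 and Cenpf were near the filter, with group means of at most 1.24 FPKM. Dancr had 0.0463 in ERKO OVX agonist and 1.09 in WT agonist, so likeness to these genes rests on low values.

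Other genes of conventional dendritic cells were compared through lists of known markers, none of which holds a member. Of all genes tested, 40.8% rose and 39.8% fell in ERKO OVX vehicle against KO vehicle, 31.4% and 28.6% in KO vehicle against WT vehicle, and 29% and 25.9% in Ex3a OVX vehicle against ERKO OVX vehicle, with medians of 0.0076, 0.0089 and 0.017. Of 30 genes shared by cDC1 and cDC2, 26 were tested. In ERKO OVX vehicle against KO vehicle 4 rose and 19 fell (median -0.75), and in agonist cells 4 rose and 18 fell (median -0.58, where 40% of all genes rose and 38.4% fell). The largest falls in vehicle were in the protease gene Adam19 (-2.90), P2ry10 (-2.10) and Ccr7, the receptor that brings dendritic cells to lymph nodes (-1.80). Ccr7 had 508 and 503 FPKM in ERKO OVX vehicle and 1724 and 1813 in KO vehicle. Tmem229b (0.92), Btla (0.59) and Pstpip1 (0.32) rose most. In KO vehicle against WT vehicle 17 rose and 3 fell (median 0.34), led by Adam19 (1.12), Hmgn3 (1.05) and Traf1 (0.90), with falls in Kmo (-0.49), Amica1 (-0.47) and Dpp4 (-0.24). Zbtb46 and Flt3 thus moved in the direction of the list's median in both comparisons. Itgax went against it in ERKO OVX vehicle against KO vehicle, at 0.44, and its 0.060 in KO vehicle against WT vehicle did not pass. In Ex3a OVX vehicle against ERKO OVX vehicle 10 rose and 12 fell (median -0.16), and Ccr7 was lowest at -1.28.

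Of 31 transcription factors of dendritic cells, 30 were tested. In ERKO OVX vehicle against KO vehicle 9 rose and 17 fell (median -0.56). The corepressor Cbfa2t3 (-2.33), the E protein inhibitor Id3 (-2.23) and Mycl (-1.74) fell most, while Batf (1.65), a relative of Batf3, Batf2 (1.03) and Cebpa (1.02) rose most. In agonist cells 10 rose and 18 fell, among them Irf4, a factor of cDC2, at -1.92. Irf4 had 24.5 and 25.0 FPKM in ERKO OVX agonist and 98.3 and 95.1 in KO agonist. In KO vehicle against WT vehicle 18 rose and 8 fell, with Bcl6 (0.87), Zeb1 (0.71) and Relb (0.70) up and Cebpa (-1.06), Id1 (-0.75) and Zeb2 (-0.44) down. In Ex3a OVX vehicle against ERKO OVX vehicle 13 rose and 8 fell, with Irf4 (-1.50) and Stat5a (-1.22), which signals for GM-CSF, lowest. With the agonists Batf rose by 0.94 in Ex3a OVX, 0.33 in ERKO OVX, 1.09 in KO and 0.89 in WT. Stat5a rose by 0.52 in ERKO OVX, 1.00 in KO and 1.31 in WT, and its 0.12 in Ex3a OVX did not pass. Id3 differed by -1.15 in Ex3a OVX, -0.64 in ERKO OVX, -1.18 in KO and -1.04 in WT, and Id1 by -1.09 in Ex3a OVX, -0.92 in KO and -1.45 in WT, while its -0.29 in ERKO OVX did not pass.

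Among 20 cDC1 markers besides the members, 18 had a row, 13 were tested and Cd8a, Itgae, Snx22, Gpr33 and Tlr12 stayed below 1 FPKM in all libraries. In ERKO OVX vehicle against KO vehicle 6 rose and 7 fell (median -0.56), with Gcsam (-1.51), Hepacam2 (-1.35) and the antigen uptake receptor Ly75 (-1.29) lowest and Ifi205 (1.32) highest. In KO vehicle against WT vehicle 4 rose and 6 fell (median -0.089), the scavenger receptor Cd36 lowest at -1.38. Among 20 cDC2 markers, 16 were tested. In ERKO OVX vehicle against KO vehicle 10 rose and 2 fell (median 0.77), with Clec4a1 (3.46), Ltb (2.26) and the lectin gene Mgl2 (1.97) highest, and in KO vehicle against WT vehicle 4 rose and 9 fell (median -0.23), with Mgl2 (-2.76) and Clec10a (-1.29) lowest. Mgl2, a marker of IL-4 exposed cells, had 99.3 and 96.6 FPKM in ERKO OVX vehicle, 24.8 and 23.8 in KO vehicle, and 169.6 and 171 in WT vehicle. Among 23 plasmacytoid markers, 14 were tested. In ERKO OVX vehicle against KO vehicle 9 rose and 4 fell (median 0.48), led by Ly6c2 (3.85), which inflammatory monocytes share, with falls in Pacsin1 (-1.87), Tspan13 (-1.13) and the plasmacytoid factor Spib (-0.82).

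**Figure D3:**
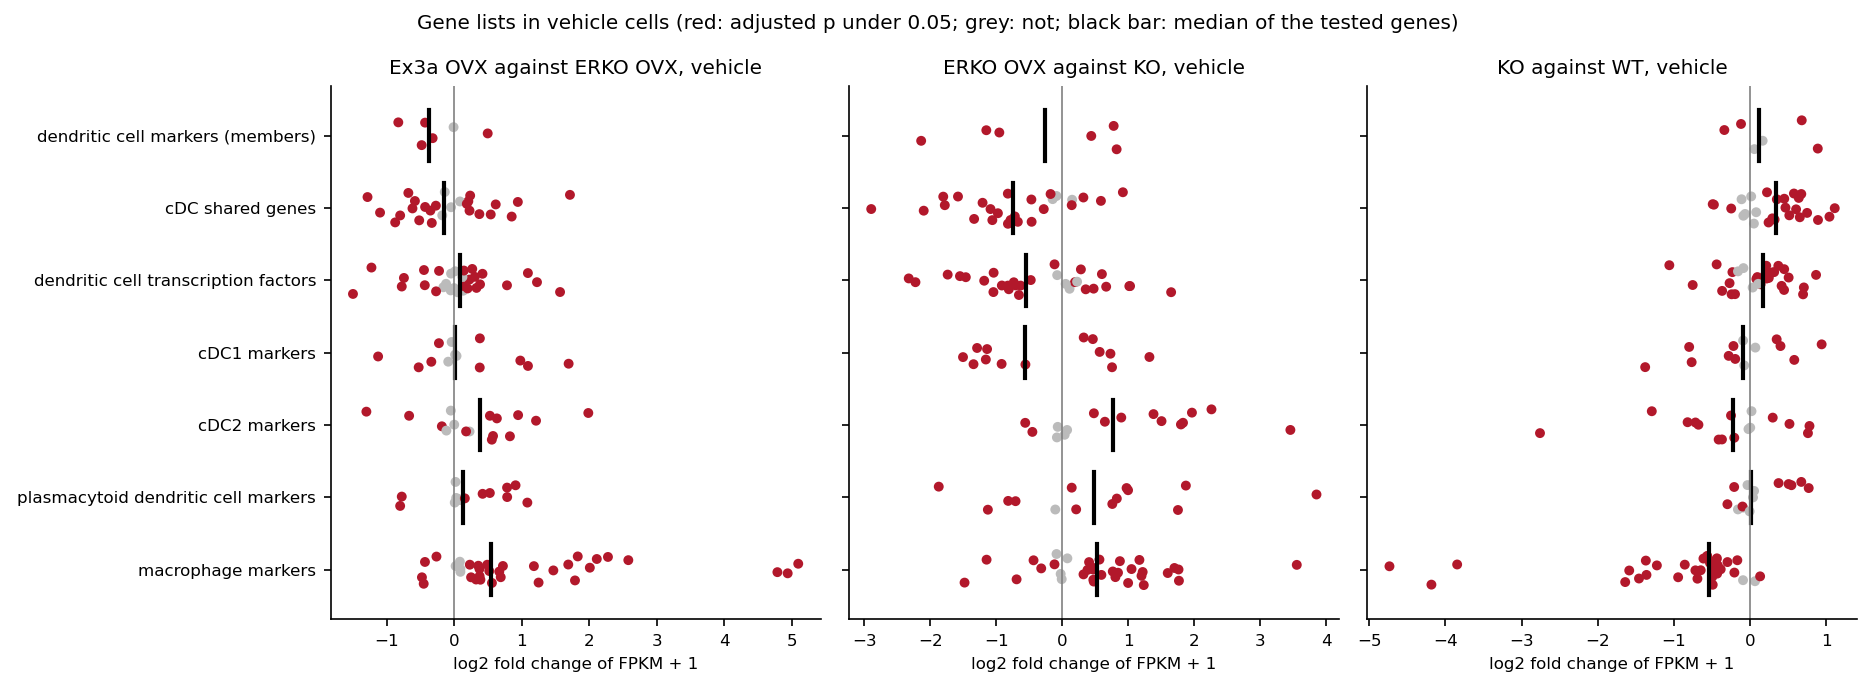
Log2 differences of FPKM + 1 in vehicle cells for each tested gene of 6 marker lists and for the 6 tested members, in the 3 pairs of arms; red points have an adjusted p under 0.05 and black bars are medians. The shared cDC genes have a median of -0.75 in ERKO OVX against KO and 0.34 in KO against WT, and the macrophage genes 0.52 and -0.54.

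Growth factors and receptors that act on these cells moved both ways. Of 15 tested, 7 rose and 7 fell in ERKO OVX vehicle against KO vehicle (median 0.16). Csf1, the macrophage growth factor, was highest at 1.82, and Csf2rb, the signalling chain of the GM-CSF receptor, was lower at -0.89. In KO vehicle against WT vehicle 5 rose and 6 fell, with Csf1, Kitl (-0.85) and Csf1r (-0.38) lowest and Flt3l, the ligand of Flt3, at 0.23. Xcl1, the ligand of Xcr1, rose by 2.68 in Ex3a OVX vehicle against ERKO OVX vehicle. Of 11 tested relatives of Sirpa, Cd209a, Siglech and Itgax, Siglece rose by 2.03 in WT and 2.01 in KO with the agonists. Siglece was also higher in ERKO OVX vehicle than in KO vehicle by 2.88, and Sirpb1a by 0.88.

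Markers of other cells also differed between the arms. Of 34 macrophage genes, all tested, 24 rose and 6 fell in ERKO OVX vehicle against KO vehicle (median 0.52), 1 rose and 31 fell in KO vehicle against WT vehicle (median -0.54), and 26 rose and 4 fell in Ex3a OVX vehicle against ERKO OVX vehicle (median 0.54). Their summed level was 17045 and 16892 FPKM in Ex3a OVX agonist, 17797 and 17848 in Ex3a OVX vehicle, 10692 and 10688 in ERKO OVX agonist, and 11387 and 11368 in ERKO OVX vehicle. It was 4333 and 4497 FPKM in KO agonist, 5084 and 5155 in KO vehicle, 8350.0 and 8065 in WT agonist, and 9591 and 9386 in WT vehicle. C1qa, of complement, had 115 and 117 FPKM in Ex3a OVX vehicle, 2.66 and 2.20 in ERKO OVX vehicle, 3.09 and 3.45 in KO vehicle, and 115 and 110.3 in WT vehicle. No macrophage gene was at 0 or below 1 FPKM throughout. With the agonists 4 macrophage genes rose and 27 fell in KO, where 25.8% of all genes rose and 25.2% fell, and 4 rose and 29 fell in WT, where 30.7% rose and 26.9% fell.

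Blood cell markers were higher in the OVX arms. Of 13 tested monocyte genes 10 rose and 3 fell in ERKO OVX vehicle against KO vehicle (median 1.33), with summed levels of 5148 to 5589.7 FPKM in Ex3a OVX, 4887 to 4941 in ERKO OVX, 862 to 1220.5 in KO and 645 to 1052 in WT. Of 12 neutrophil genes 11 rose and 1 fell (median 2.33), with sums of 1005 to 1759 FPKM in Ex3a OVX, 2457 to 2474 in ERKO OVX, 199 to 309 in KO and 301 to 367 in WT. Of 7 basophil and mast cell genes all 7 rose (median 2.99), led by Mcpt8 (5.72), and the sums were 36.6 to 54.8 FPKM in Ex3a OVX, 85.4 to 119.6 in ERKO OVX, 0.517 to 0.703 in KO and 0.936 to 1.56 in WT. Of 9 T and NK cell genes 8 rose and 0 fell, with sums of 68.4 to 92.3 FPKM in Ex3a OVX, 23.5 to 28.8 in ERKO OVX, 2.98 to 4.58 in KO and 1.93 to 2.59 in WT. Of 10 B cell genes only Cd79b was tested, and the other 9 stayed below 1 FPKM, with sums of at most 9.17 FPKM. No gene of these 5 lists was at 0 in all libraries. The part of other cells in the differences of the 10 members was not tested.

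**Figure D4:**
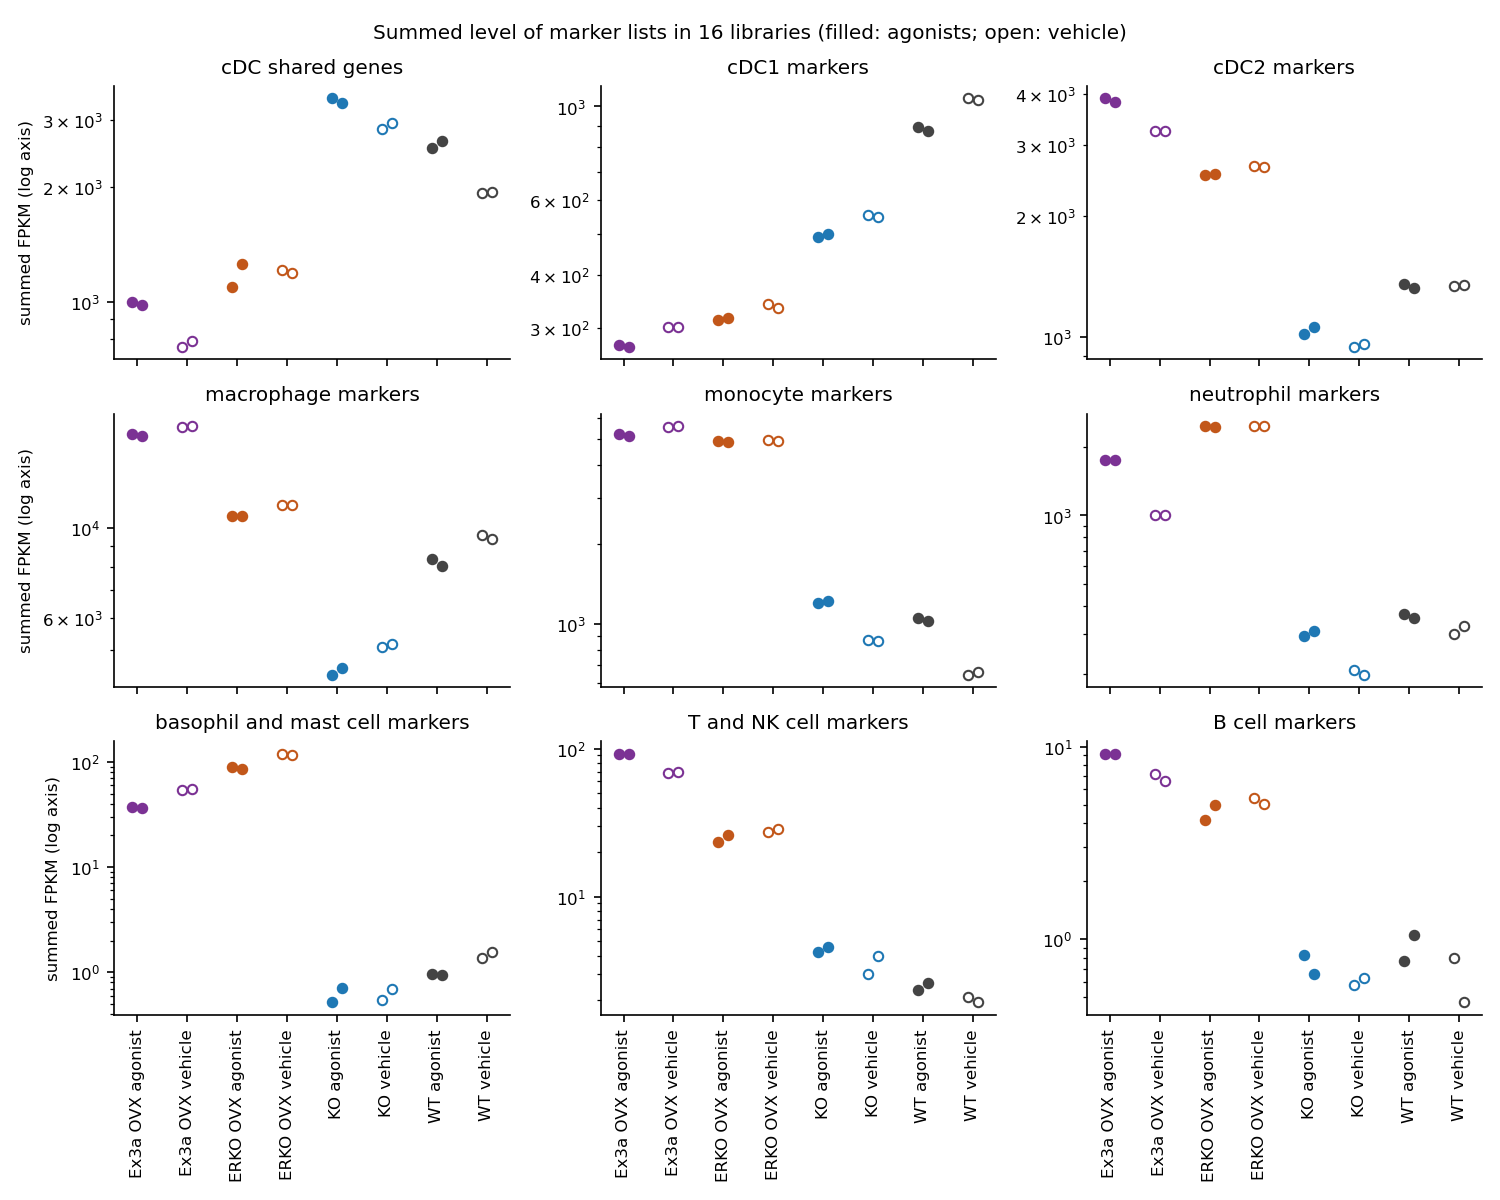
Summed FPKM (log axis) of 9 marker lists in each of the 16 libraries; filled points are agonist libraries and open points vehicle libraries. The shared cDC genes sum to 761 to 1256 FPKM in the OVX libraries and 1934 to 3426 in KO and WT. Ccr7 alone makes up most of this sum in KO vehicle, so the sum does not stand for the list evenly. Basophil and mast cell genes sum to 36.6 to 119.6 in the OVX libraries and at most 1.56 in KO and WT.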

How the data were processed

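TruSeq libraries of RNA were read from both ends, per the labels' protocols. The deposited table gives FPKM for 16 libraries; its total per library was 612322 to 696321 in the OVX arms and 481738 to 522287 in KO and WT. Build mm10 and the tools DESeq2, HTSeq, STAR, FastQC and cutadapt are named, with no version, in the submitters' processing notes; how FPKM was computed was not stated. The labels speak of triplicates and of at least 50 M reads, and 2 libraries per group were analysed here.

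Values were tested as log2(FPKM + 1) with limma 3.58.1 in R 4.3.3 (trend, robust empirical Bayes, 4 residual degrees of freedom). Genes entered at 1 FPKM or more in at least 2 libraries, which gave 11383 (11382 where KO agonist entered). Isolated zeros among libraries of 5 FPKM or more were taken as missing (6 values, none in a member). P-values were adjusted by Benjamini-Hochberg over all genes, with a threshold of 0.05, for 12 comparisons. The fit was tested on simulated data. Depth was estimated from steps between low values of 2851 genes with 1 transcript, of which 54.1 to 67.9% lay within 0.1 of a whole fragment.

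Named are all members, per list and comparison up to 3 genes with the largest passing change in each direction, and the 3 genes most like each tested member. Members and lists were chosen with earlier results of these data known. Alternatives were pseudocounts of 0.1 and 5, no filter, all 16 libraries, the replicate block, 2 other scalings, zeros kept, and each library left out; leaving out small RNA rows and fitting the 8 unoperated libraries alone were added after seeing the data.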

Additional observations from a re-analysis of the deposited data

Results flagged for a closer look

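These 6 results are listed because the response to the agonists differed between 2 arms by the interaction term of the fit (limma, Benjamini-Hochberg adjusted over all genes). Of all genes, 6.9% passed this term between KO and WT. The share for the OVX arms, given above, was higher, so a pass there does not set a gene apart. Each OVX group was also 1 averaged sample, with its spread taken from KO and WT. Between KO and WT, the Flt3 response differed by -0.47 ± 0.083 (adjusted p 0.00974), with both KO agonist libraries below both KO vehicle libraries and overlapping WT pairs. The Zbtb46 response differed by -0.34 ± 0.086 (0.0481) and that of Id2 by -0.13 ± 0.031 (0.0398), and both genes rose in KO and in WT. Both sat at the threshold, and of 26 other settings Zbtb46 lost its call in 11 and Id2 in 10. Between Ex3a OVX and ERKO OVX, the Batf3 response differed by 0.77 ± 0.13 (0.00317) and that of Sirpa by -0.61 ± 0.044 (5.52e-05), each passing in opposite directions in the 2 arms. The Id2 response differed by 0.16, with a rise in both arms, but by only 0.032 with quantile normalization.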

How the results depend on the processing

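Over 26 settings, 1830 values of 72 member results were recomputed, of which 49 results passed as reported. Of these values 1769 kept their direction and side of the threshold, 26 lost and 18 gained a call, and 17 changed sign, 0 of them in a result that passed. Many could hardly change. Leaving out a library outside a comparison keeps the log2 value of that comparison, and keeping zeros altered no member value. Leaving out 1 library of an OVX pair still left 1 sample, and these pairs differed by about sampling noise. The tally is therefore not a measure of how firm the results are. The number of members whose response differed between KO and WT was 3, and 1 (Flt3) without a filter or with median ratio scaling, and 1 to 3 with 1 library left out. Over all genes that count was 785, against 415 without a filter and 412 to 785 with 1 library left out. For Ex3a OVX minus ERKO OVX it was 3531, against 5526 with all 16 libraries and 5498 with the replicate block added. Same-numbered libraries did not deviate together (r of -0.276 to 0.198), and the block changed 3 member calls, all of which 16 libraries without the block changed too, namely Itgax in ERKO OVX (response -0.082, adjusted p 0.0244), Sirpa in KO minus WT (0.092, 0.0375) and Itgax in Ex3a OVX minus ERKO OVX (0.13, 0.0135). Without a filter the Batf3 response in Ex3a OVX had an adjusted p of 0.0602. Without a filter Xcr1 passed in KO (adjusted p 0.00203) and WT (0.00748), and Clec9a in KO (-0.24, 0.0281) and WT (-0.25, 0.0244). In the OVX arms that fit borrows its spread from deeper libraries, and it called Siglech in ERKO OVX from 1 library. The Zbtb46 response difference in KO minus WT just missed the threshold at both other pseudocounts (0.0508 and 0.0513).

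Sign changes all concerned results that did not pass as reported, and the values of changed sign were small. Batf3 in KO minus WT with agonists was not near 0 throughout, and passed at 0.21 without the second WT agonist library. With quantile normalization the response was 0.043 for Flt3 in WT, -0.0019 for Zbtb46 in ERKO OVX and -0.016 for Itgax in Ex3a OVX. KO minus WT with agonists was then 0.043 for Itgax and 0.053 for Sirpa, and Ex3a OVX minus ERKO OVX with vehicle 0.010 for Flt3. With 1 library left out, the response ran from -0.061 to 0.051 for Flt3 in WT and from -0.025 to 0.12 for Zbtb46 in ERKO OVX, and KO minus WT with agonists from -0.032 to 0.21 for Batf3. Ex3a OVX minus ERKO OVX for Flt3 ran from -0.077 to 0.060 with vehicle and from -0.16 to 0.043 with agonists. Differences of response ran from -0.15 to 0.051 for Flt3 and from -0.032 to 0.11 for Zbtb46 in Ex3a OVX minus ERKO OVX, and from -0.20 to 0.037 for Batf3 in KO minus WT. The cause was not tested. FPKM without counts, 2 libraries a group and lower OVX depth limit the low genes most.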
